A study of Mus musculus with 24 samples.

Results

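The genes described here encode the machinery that brings proteins into mitochondria and the chaperones and proteases that look after them once inside. They were chosen by name, as every listed gene whose symbol starts with Timm (15 genes) or Tomm (10 genes) and 18 further genes named singly, from Samm50 to Phb2. Of the 17696 genes measured, 43 were members, and all 43 were listed and tested. The values are read counts from bulk RNA-seq of MIN6 cells, which were derived from a mouse insulinoma and serve as a β cell line. The stable lines had been made with lentiviral vectors and puromycin selection: Scr carried a scrambled sequence, ZIP an antisense inhibitor of miR-146a-5p, and OE a vector that overexpressed miR-146a-5p. Each line was sequenced without cytokines and after 24 h with IL-1β at 5 ng/ml, IFNγ at 100.0 ng/ml and TNFα at 10 ng/ml (Scr+Cy, ZIP+Cy and OE+Cy), with 4 libraries in each of the 6 groups. The lines came from single clones after selection, those of ZIP and OE being chosen after a screen of miR-146a-5p by qRT-PCR, and the OE vector also differed from the vector of Scr and ZIP in its backbone and in its reporter (TurboRFP in place of copGFP). The effect of the miRNA, the clone and, in OE, the vector cannot be told apart in a comparison between lines, whereas the comparisons with and without cytokines were made within a line. These libraries did not capture miR-146a-5p, so neither its level nor its inhibition in ZIP could be checked.

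Almost all mitochondrial proteins are made in the cytosol. They enter through the TOM complex of the outer membrane and are then handed to the TIM23 complex, which with its motor pulls proteins carrying a presequence into the matrix, to the TIM22 complex, which inserts carrier proteins, to the SAM complex, which builds barrel proteins of the outer membrane, or to the disulfide relay of the intermembrane space. In the matrix a peptidase removes the presequence, the chaperonin folds the protein, and proteases such as LONP1 and the CLPXP complex remove proteins that are damaged or not assembled. β cells depend on mitochondria to couple glucose metabolism to insulin secretion.

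miR-146a-5p pairs with its targets through its seed, bases 2 to 8, which is why the mature sequence and the members' possible sites are shown. The mature sequence (RefSeq, GRCm38.p6, chr11:43374435-43374456, minus strand) has the seed in capitals below. A site of the 7 letters AGTTCTC, the reverse complement of the seed, was in the 3′ UTR of 6 of the 42 members with an annotated 3′ UTR (14.3%) and of 2021 of 15452 listed genes (13.1%). These shares were not adjusted for length. The longest 3′ UTR of a gene had a median of 865 bases in the members and 1126 bases over the listed genes. The 6 members were Chchd4 of the disulfide relay, Timm17a of the TIM23 channel, Timm29 of the TIM22 complex, the TOM channel gene Tomm40l, the small TOM subunit gene Tomm6 and the inner membrane protease gene Yme1l1. Each site is given below with 9 bases on either side and in capitals itself, from mm10 and GENCODE M21, in the 5′ to 3′ direction of the mRNA. In Chchd4, Timm29 and Tomm40l the site is followed by an A. The sites of Timm29, Tomm6 and Yme1l1 lie inside the coordinates that the files give for the gene, whereas the 3 of Chchd4, Timm17a and Tomm40l lie beyond its listed 3′ end, in a longer 3′ UTR of GENCODE.
miR-146a-5p: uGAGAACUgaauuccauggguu
Chchd4 (site at chr6:91463666-91463672, minus strand): agtgataccAGTTCTCaaaaaataa
Timm17a (site at chr1:135299698-135299704, minus strand): atgaaagagAGTTCTCtttctcctc
Timm29 (site at chr9:21594507-21594513, plus strand): cctcgactcAGTTCTCagcagcttg
Tomm40l (site at chr1:171216551-171216557, minus strand): tcctggttaAGTTCTCaccttgaac
Tomm6 (site at chr17:47687048-47687054, minus strand): ggtgagagcAGTTCTCctgtgtttc
Yme1l1 (site at chr2:23198824-23198830, plus strand): aggcagctgAGTTCTCtggtgaaat

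Promoters of 38 members, from 250 bases before to 50 bases after the transcription start, were in RefSeq's GRCm38.p6 and were searched on both strands for short motifs. The letters CCGGAAG, a motif of ETS factors, were in 17 of the 38 (44.7%) and in 16.5% of the promoters of 13884 listed genes. The core GCATGCGC of the NRF1 motif was in 3 (7.89%, against 4.98% of genes), in Clpx, Grpel1 and Timm13, and the YY1 motif AAGATGGCG in 1 (2.63%, against 2.75%), in Timm50. The cytokine-related motifs GAAANNGAA of IRF factors and TTCNNNGAA of STAT factors were in 4 (10.5%, against 8.65%) and 5 (13.2%, against 8.36%). None held TTGCATCA, a C/EBP-ATF motif that was in 0.771% of genes. The promoters of 3 genes are shown as examples, picked from the members whose levels changed with cytokines and that held a motif. Clpx and Timmdc1 changed in each line and Timm10 in OE. The letters found are in capitals, the reverse complement CTTCCGG included. A pair of overlapping ETS matches in Timm10 and in Timmdc1 forms CTTCCGGAAG. Other such members are not shown, among them Phb, Chchd4 and Timm22 (STAT) and Tomm34, Yme1l1 and Timm10b (ETS). The promoters of Lonp1 and Timm17b, whose levels changed with cytokines as well, held none of the letters searched. Hspa9, which also changed, was not among the 38.
Clpx (chr9:65294010-65294309, plus strand): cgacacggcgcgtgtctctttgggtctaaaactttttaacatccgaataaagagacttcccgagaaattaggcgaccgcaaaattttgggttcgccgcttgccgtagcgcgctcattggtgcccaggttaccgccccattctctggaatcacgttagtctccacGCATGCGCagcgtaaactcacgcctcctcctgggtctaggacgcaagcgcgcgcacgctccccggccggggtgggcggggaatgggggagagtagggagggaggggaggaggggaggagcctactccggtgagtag
Timmdc1 (chr16:38522614-38522913, minus strand): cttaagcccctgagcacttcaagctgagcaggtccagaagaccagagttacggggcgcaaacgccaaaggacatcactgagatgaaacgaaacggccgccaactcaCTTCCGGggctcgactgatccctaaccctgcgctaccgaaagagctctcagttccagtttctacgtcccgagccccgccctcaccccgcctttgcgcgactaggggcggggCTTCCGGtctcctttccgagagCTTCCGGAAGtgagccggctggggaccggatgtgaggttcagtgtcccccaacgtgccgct
Timm10 (chr2:84826771-84827070, plus strand): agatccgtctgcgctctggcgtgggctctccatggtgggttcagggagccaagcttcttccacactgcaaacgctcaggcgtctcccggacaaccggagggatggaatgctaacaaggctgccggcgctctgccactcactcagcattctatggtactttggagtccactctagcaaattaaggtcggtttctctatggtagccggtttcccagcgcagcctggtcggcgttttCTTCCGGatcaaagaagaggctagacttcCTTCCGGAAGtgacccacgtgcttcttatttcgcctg

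The libraries held 26657792 to 37168232 reads assigned to genes (median 30701023), and within a group the log2 levels of any pair of libraries correlated across genes with r between 0.974 and 0.996. A member had between 33 and 20189 reads in a library. Levels are given as CPM, the count relative to the library's total, after TMM scaling, which sets libraries on a common scale. All 10 β cell markers searched were listed, and their summed level was 18756 to 25050.4 CPM in Scr, 19595 to 21528 in Scr+Cy, 28374 to 30905 in ZIP, 25617 to 28568 in ZIP+Cy, 40112 to 43788 in OE and 25357 to 33004 in OE+Cy, although Ucn3 was near 0.2 CPM outside OE and OE+Cy. Most of this sum was Ins2, Iapp and, in OE, Ins1, and the other markers went both ways in OE. Lower in OE were Pdx1 (means of 824 CPM in Scr, 627 in OE and 337 in OE+Cy) and Mafa (1050.4, 716 and 358 CPM). So were Nkx6-1 (254, 167 and 115 CPM) and G6pc2 (3184, 1895 and 1183 CPM). Higher in OE were Slc30a8 (21.9, 382 and 185 CPM), Slc2a2 (24.0, 92.7 and 37.3 CPM) and Ucn3 (0.197, 19.6 and 5.48 CPM). The α cell markers Gcg, Ttr and Irx2 had a summed level of 1528 to 1981 CPM in Scr, 869 to 1099 in Scr+Cy, 3809 to 4760.0 in ZIP, 2151 to 3034 in ZIP+Cy, 601 to 1155 in OE and 98.4 to 371 in OE+Cy. Most of that sum was Ttr, and the 3 genes did not move together: Gcg had a mean of 288 CPM in Scr, 184 in ZIP and 41.4 in OE, and Irx2 was at 0 in Scr and at 2.86 in OE. Ppy, a marker of PP cells, was at 0 in Scr and ZIP, at 6.04 to 10.9 CPM in OE and at 2.27 to 5.71 CPM in OE+Cy. The part of these markers in the results below was not tested. In replicate 1 of Scr, Scr+Cy and ZIP the summed level of 4 fibroblast markers reached 11.2, 28.3 and 25.0 CPM, and the counts of members without these libraries are given in the closing section. In bulk RNA, fewer cells of a type and less RNA per cell cannot be told apart. Nothing states that the replicates were separate cultures, so p values measure the spread between these libraries.

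Of the members' estimated counts 36.5% were not whole numbers, and the source of the fractions was not tested. Fractions were present in all 24 values of Tomm6os, Tomm6, Hspd1, Grpel1, Timm10b and Gfer. They were in none of those of Hspa9, Lonp1, Timm10, Timm23, Tomm20 and Yme1l1. Tomm6os is an antisense RNA that overlaps Tomm6, and the use of strand in counting is not given in the sources used here, so reads of the pair cannot be told apart. Hspd1 and Hspe1 lie head to head and overlap at their starts. Listed genes also overlapped Tomm40l (Apoa2), Timm17b (Btbd35f26), Timm10b (Dnhd1), Dnajc19 (Fxr1) and Timm8b (Nkapd1) in the files' coordinates. The same held for Grpel1 (Tada2b), Timm29 (Yipf2), Pmpca (Inpp5e), Timm13 (Tmprss9) and Timm21 (Fbxo15). The part of these overlaps in the results was not tested. The row named Timm8a1 lies at chr10:11609224-11610439, whereas RefSeq places the gene Timm8a1 on chromosome X, so what this row measured is uncertain. The exonic length, promoter and 3′ UTR used for Timm8a1 were those of the annotated gene, so its level per kilobase is uncertain as well. Timmdc1, which shares the name stem, encodes an assembly factor of respiratory complex I and not an import protein.

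Per kilobase of exonic sequence, which could be computed for all members except Tomm6os, the most abundant member in Scr was Hspa9, the matrix Hsp70 that drives the import motor, at a level of 101 CPM per kb (94.3 to 104 over 4 libraries), followed by Hspd1, the matrix chaperonin, at 91.4 (80.2 to 97.9). The ranges of these libraries overlapped. The lowest levels among these 42 were those of Timm21, a TIM23 subunit, at 3.34 CPM per kb and of the motor subunit Pam16 at 2.12. Summed over the 43 genes, the level was 2680.4 ± 25.3 CPM in Scr (SD, n = 4), 2786 ± 91.5 in ZIP and 2651 ± 69.7 in OE, whereas Scr+Cy had 2647 ± 46.9, ZIP+Cy 2867 ± 104 and OE+Cy 2936 ± 118. The 4 OE+Cy libraries (2801 to 3041 CPM) lay above all OE libraries (2581 to 2730.0 CPM), but without Hspa9 and Lonp1, which were left out after their values were seen, the sum of the other 41 was 2210.0 ± 52.6 CPM in OE and 2198 ± 13.7 CPM in OE+Cy.

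A gene was called at the study's thresholds (1.5-fold or more in either direction with an unadjusted p under 0.05) and separately at a Benjamini-Hochberg adjusted p value under 0.05 over all 17696 genes with no fold limit, both in edgeR. In the 7 comparisons between groups, 38 of the 43 members passed the adjusted threshold at least once, against 80.5% of all genes, and 7 reached the study's thresholds, against 52.1%: Hspa9, Lonp1, Timm10, Timm17b, Timm8a1, Tomm40l and Tomm6os. The 5 that passed in none were the small TOM subunit genes Tomm5 and Tomm7, the TOM receptor gene Tomm22 and the small Tim chaperone genes Timm9 and Timm13. The share of all genes called in each comparison stands beside its count below, for the edgeR fit of all libraries without a replicate block.

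**Figure D1:**
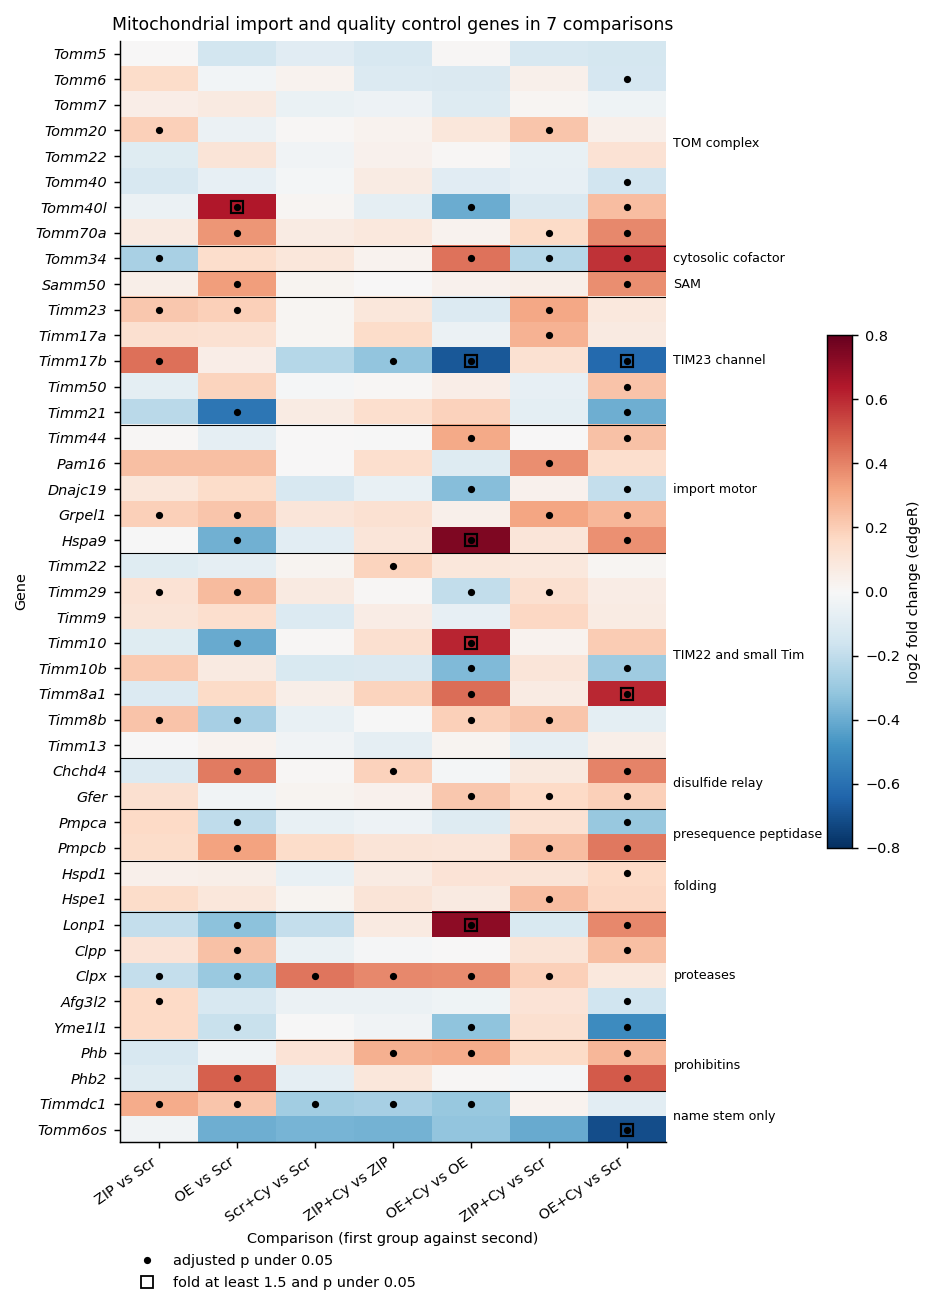
Log2 fold changes (colour, edgeR) of the 43 genes in rows, grouped by role, over 7 comparisons in columns. Dots mark an adjusted p under 0.05 and squares the study's thresholds; the highest log2 fold change is that of Hspa9 in OE+Cy against OE (0.75) and the lowest that of Tomm6os in OE+Cy against Scr (−0.71).

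The ZIP line, which carries the inhibitor of miR-146a-5p, was compared with Scr without cytokines. The TIM23 channel genes Timm23 and Timm17b and the TOM receptor gene Tomm20 were higher in ZIP, as were the motor's exchange factor Grpel1, the small Tim gene Timm8b, the TIM22 subunit Timm29, the inner membrane protease gene Afg3l2 and Timmdc1. Tomm34, a cytosolic cochaperone of import, and Clpx, the unfoldase of the CLPXP protease, were lower. Thus 8 members rose and 2 fell at the adjusted threshold, against 13.5% and 14.8% of all genes. None was called at the study's thresholds, which took in 14.9% of genes; 19 had an unadjusted p under 0.05 in edgeR, and DESeq2 also called 0. The median log2 fold change was 0.06 over the members (−0.26 to 0.44) and 0.00 over all genes.

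The largest difference was that of Timm17b (chrX:7899336-7907653), one of the alternative channel subunits of TIM23. Its level was 45.8, 42, 35.3 and 38.2 CPM in the Scr libraries and 54.7, 56.3, 49.9 and 57.7 CPM in ZIP, so that every ZIP library was above every Scr library (log2 fold change 0.44 ± 0.09 (SE), adjusted p = 0.000612). Timm23, the channel subunit itself, stood at 47, 45.3, 45.1 and 45.7 CPM in Scr and 50.8, 52.6, 51 and 58.2 CPM in ZIP. These ranges did not overlap either, and the log2 fold change was 0.22 ± 0.06 (adjusted p = 0.0096). Tomm20, the receptor for presequences, was at 108, 101, 94.4 and 101 CPM in Scr and 117, 124, 113 and 109 CPM in ZIP. The gap was narrow, between 108 and 109 CPM, and the call (log2 fold change 0.19 ± 0.07 (SE), adjusted p = 0.03) was lost without any 1 of 5 libraries, with adjusted p values of 0.0544, 0.0695 and 0.0581 without Scr replicates 2, 3 and 4 and 0.0619 and 0.117 without ZIP replicates 1 and 2.

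Among the other genes that rose, Timmdc1 had a log2 fold change of 0.30 (adjusted p = 0.000633) and was at 30.9 to 34.6 CPM in ZIP against 25.8 to 26.8 CPM in Scr, without overlap. Timm8b rose by 0.23 (adjusted p = 0.0085) and Grpel1 by 0.19 (adjusted p = 0.0127), and Afg3l2 (0.16) and Timm29 (0.12) by less. Clpx was at 63.4, 66.8, 63.7 and 64.8 CPM in Scr and 57.2, 54.9, 56.4 and 58.1 CPM in ZIP, lower in every library (log2 fold change −0.19 ± 0.05 (SE), adjusted p = 0.00782). Tomm34 ranged from 26.7 to 29.8 CPM in Scr and from 20.02 to 27.4 CPM in ZIP, where 1 ZIP library lay within the range of Scr (log2 fold change −0.26 ± 0.07 (SE), adjusted p = 0.00811). With the replicate number as a block, since libraries of the same number deviated together, 16 members passed (13 higher, 3 lower), the same 10 and Hspe1, Pmpca, Pmpcb, Gfer and Tomm6, higher, and Timm21, lower. Tomm20 had an adjusted p of 0.0139 in that edgeR fit, and single libraries were left out only in the fit without the block. The share of all genes that passed with the block is not given here, so the 16 cannot be set against it.

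Overexpression of miR-146a-5p in untreated cells was compared with Scr in the same way. Of the 8 TOM genes Tomm40l and Tomm70a were higher in OE and none was lower, and Samm50 of SAM, Chchd4 of the disulfide relay and the prohibitin gene Phb2 were higher as well. Of the 5 proteases and their cofactors 3 were lower (Lonp1, Clpx and Yme1l1) and 1 higher (Clpp). Timm10 and Timm8b of the small Tims, the motor chaperone gene Hspa9 and the TIM23 subunit gene Timm21 were also lower. In all 11 members rose and 8 fell, against 24.5% and 25.6% of all genes. The study's thresholds called 1 member, Tomm40l, and 25.7% of genes. The median log2 fold change was 0.07 over the members and 0.00 over all genes.

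Tomm40l, a paralog of the TOM channel gene Tomm40, was at 25.4, 27.7, 28.2 and 26.3 CPM in Scr and 49.8, 39.5, 39.4 and 39.3 CPM in OE. All OE libraries were above all Scr libraries, with OE replicate 1 highest (log2 fold change 0.64 ± 0.09 (SE), adjusted p = 3.96e-06). Phb2, a subunit of the prohibitin ring of the inner membrane, was at 71.6, 69, 70.5 and 66.7 CPM in Scr and 98.4, 97, 96 and 95 CPM in OE, with little spread in either group (log2 fold change 0.48 ± 0.05 (SE), adjusted p = 4.66e-09). Its partner Phb was at 34.3 to 35.4 CPM in Scr and 33.8 to 34.7 CPM in OE, with a log2 difference of −0.03 (95% confidence interval −0.16 to 0.09). Chchd4, the oxidoreductase of the disulfide relay, was at 27.7, 29.7, 26 and 26.9 CPM in OE, above the 19.6 to 21.6 CPM of Scr (log2 fold change 0.41 ± 0.06 (SE), adjusted p = 7.43e-06). Tomm70a, a receptor for carrier proteins (0.35), Samm50, the core of SAM (0.34), and Pmpcb, the catalytic subunit of the presequence peptidase (0.32), rose by similar amounts, while the other peptidase subunit, Pmpca, fell (−0.20). The 6 expressed genes within 1 Mb of Tomm70a had a median log2 fold change of 0.50, larger than its own, and the 41 of Pmpca one of −0.18. The 35 of Phb2 had one of −0.07, in the other direction. The part of these neighbours in the results was not tested. Smaller rises were those of Timm29 (0.26), Clpp (0.24), Grpel1 (0.22), Timmdc1 (0.22) and Timm23 (0.19, adjusted p = 0.0123).

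The largest fall was that of Timm21, which links TIM23 to the TOM complex. It was at 12.5, 11.2, 13 and 13.1 CPM in Scr and 8.76, 8.35, 7.50 and 8.68 CPM in OE, without overlap (log2 fold change −0.58 ± 0.09 (SE), adjusted p = 3.79e-06). Fbxo15 overlaps it in the files' coordinates, and 5 expressed genes within 1 Mb had a median log2 fold change of −0.22; their part in the result was not tested. Hspa9 was at 446, 406, 450.3 and 439 CPM in Scr and 315, 397, 319.7 and 301 CPM in OE (log2 fold change −0.39 ± 0.09 (SE), adjusted p = 0.000714). Its highest OE library, replicate 2, still lay below the lowest Scr library, and 28 expressed genes within 1 Mb had a median of −0.17. Timm10, a chaperone of carrier proteins in the intermembrane space, was at 8.52, 7.59, 8.09 and 8.61 CPM in Scr and 6.74, 6.47, 5.93 and 5.67 CPM in OE (log2 fold change −0.40 ± 0.09 (SE), adjusted p = 0.000933); 13 expressed genes within 1 Mb had a median of −0.29. Lonp1, the main protease of the matrix, overlapped between groups, at 161, 111, 139 and 131 CPM in Scr and 95.2, 124, 111 and 103 CPM in OE. Its call (log2 fold change −0.33 ± 0.12 (SE), adjusted p = 0.0289) was lost without Scr replicate 1 (−0.23, adjusted p = 0.133), Scr replicate 3 (−0.29, adjusted p = 0.0865), OE replicate 1 (−0.27, adjusted p = 0.0952) or OE replicate 4 (−0.30, adjusted p = 0.0684). The 47 expressed genes within 1 Mb of Lonp1 had a median log2 fold change of 0.22, in the other direction.

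Clpx fell in OE as it did in ZIP, to 50.2, 55.6, 52.2 and 52.9 CPM (log2 fold change −0.29 ± 0.05 (SE), adjusted p = 4.96e-05), whereas Clpp, the peptidase that Clpx serves, was higher in every OE library (29.5 to 31.7 CPM) than in Scr (25.3 to 27.9 CPM). Timm8b fell by 0.26 on the log2 scale, while the 13 expressed genes within 1 Mb had a median log2 fold change of 0.17. Of the 6 members with a miR-146a-5p site, Chchd4, Timm29 and Tomm40l were higher in OE than in Scr and Yme1l1 was lower (−0.18 (adjusted p = 0.0494)). The call of Yme1l1 was lost in DESeq2 (−0.17, adjusted p = 0.0576), with DESeq2's size factors in edgeR (−0.17, adjusted p = 0.0692) and without any 1 of 6 libraries. Timm17a (0.12) and Tomm6 (−0.02) did not pass. In ZIP against Scr, Timm29 passed (0.12), and the log2 fold changes of Yme1l1, Tomm6, Timm17a, Tomm40l and Chchd4 were 0.16, 0.15, 0.13, −0.05 and −0.11.

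**Figure D2:**
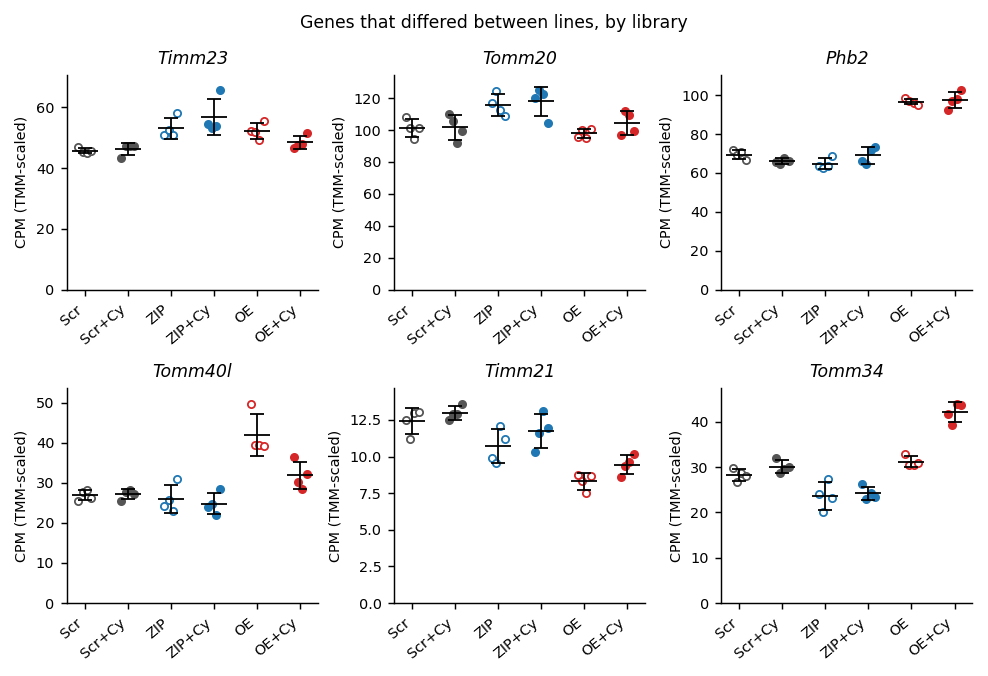
Level (CPM after TMM scaling, y axis from 0) of 6 genes by group (x axis); each point is a library, open without and filled with cytokines, and bars give mean and SD (n = 4). Phb2 and Tomm40l were higher and Timm21 lower in all OE than in all Scr libraries.

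Cytokines in the control line gave few calls among the members. In Scr+Cy against Scr, 1 member rose and 1 fell at the adjusted threshold, against 10.5% and 7.33% of all genes, and none was called at the study's thresholds, which took in 10.6% of genes (4 members had an unadjusted p under 0.05 in edgeR, and DESeq2 called 0). The log2 fold changes of the 43 ranged from −0.37 to 0.43, with a median of 0.00 as over all genes. The gene that rose was Clpx (chr9:65294260-65330659), at 63.4, 66.8, 63.7 and 64.8 CPM in Scr and 82.6, 86.4, 83.1 and 95.3 CPM with cytokines (log2 fold change 0.43 ± 0.05 (SE), adjusted p = 1.03e-06). The gene that fell was Timmdc1 (chr16:38497843-38522664), from 25.8, 26.2, 26.8 and 26 CPM to 21.6, 20.4, 21 and 23.4 CPM (log2 fold change −0.28 ± 0.06 (SE), adjusted p = 0.00207). Neither pair of groups overlapped. Timm17b was at 36.8, 33.9, 31 and 35.9 CPM in Scr+Cy, with a log2 fold change of −0.23 (adjusted p = 0.0872); in the fit with the replicate number as a block it passed (−0.23, adjusted p = 0.00706). Timm23 was at 43.4, 47.2, 47.2 and 47.2 CPM (log2 fold change 0.02, 95% confidence interval −0.11 to 0.14) and Tomm20 at 110.3, 105, 91.9 and 99.2 CPM (0.01, −0.12 to 0.13), both groups overlapping with Scr.

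In ZIP cells 4 members rose with cytokines (Clpx, Phb, Chchd4 and Timm22, the carrier channel gene) and 2 fell (Timm17b and Timmdc1), against 13.6% and 12.8% of all genes. None was called at the study's thresholds, which took in 12.5% (8 had an unadjusted p under 0.05 in edgeR, and DESeq2 called 0). Clpx went from 57.2, 54.9, 56.4 and 58.1 CPM to 74.5, 70.3, 71.5 and 79.2 CPM (log2 fold change 0.38 ± 0.05 (SE), adjusted p = 4.94e-06). Timmdc1 went from 31.7, 30.9, 31.6 and 34.6 CPM to 25.1, 26.2, 25.3 and 30.5 CPM (log2 fold change −0.26 ± 0.06 (SE), adjusted p = 0.00225). The directions were those seen in Scr+Cy, and no library of a treated group reached into the untreated group. Phb rose from 32 ± 1.93 CPM to 38.9 ± 2.80 CPM (SD, n = 4; 0.28, adjusted p = 0.0018). Timm17b fell from 54.7, 56.3, 49.9 and 57.7 CPM to 45.8, 45.7, 35.8 and 47.9 CPM (log2 fold change −0.32 ± 0.09 (SE), adjusted p = 0.0108), a call lost without ZIP+Cy replicate 3 (−0.23, adjusted p = 0.0573). Chchd4 (0.19 (adjusted p = 0.0377)) lost its call without any 1 of 6 libraries, with adjusted p values up to 0.162 (without ZIP replicate 1). With the replicate number as a block Timm17a passed as well (0.15, adjusted p = 0.0456). Timm17b (adjusted p = 0.000188) and Chchd4 (adjusted p = 0.0157) kept their calls in that fit of all libraries.

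In OE cells with cytokines, Hspa9, Lonp1 and Timm10 rose past the study's thresholds and Timm17b fell past them, 4 of 43 members against 21% of all genes. At the adjusted threshold 10 members rose and 7 fell, against 23% and 21.5% of genes, and the median log2 fold change was 0.01 over the members and 0.02 over all genes. Besides Hspa9, the motor's anchor Timm44 rose (0.31) and its J-protein gene Dnajc19 fell (−0.34). Of the small Tims, Timm10 and Timm8b (0.19) rose and Timm10b fell (−0.35). The rows of Tomm34 (0.43), Timm8a1 (0.45), Clpx (0.38), Phb (0.30) and Gfer, the sulfhydryl oxidase of the disulfide relay (0.22), were also higher, and those of Tomm40l (−0.40), Yme1l1 (−0.32), Timmdc1 (−0.30) and Timm29 (−0.19) lower. Hspd1 and Hspe1 did not pass, with log2 fold changes between 0.07 and 0.11. Clpp did not pass either, with means of 30.7 CPM in OE and 30.8 CPM in OE+Cy. With Hspa9 and Lonp1, these genes are the members used as markers of the mitochondrial unfolded protein response. Expressed genes within 1 Mb had median log2 fold changes in the same direction for some members, of −0.28 for the 15 around Timm10b, −0.23 for the 3 around Dnajc19 and −0.19 for the 6 around Yme1l1. The medians were in the other direction for the 28 around Hspa9 (−0.13) and the 47 around Lonp1 (−0.12). The part of these neighbours was not tested.

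Hspa9 was at 315, 397, 319.7 and 301 CPM in OE and 477, 614, 638 and 511 CPM in OE+Cy. Every treated library was above every untreated one, and in each replicate number the treated library was higher (log2 fold change 0.75 ± 0.09 (SE), adjusted p = 1.95e-07). Lonp1 (chr17:56614298-56626904) went from 95.2, 124, 111 and 103 CPM to 137, 195, 212 and 166 CPM (log2 fold change 0.71 ± 0.12 (SE), adjusted p = 3.76e-05). Its treated libraries were spread over 137 to 212 CPM, the lowest of them, replicate 1, being above the highest untreated library. Timm10 (chr2:84827021-84830214) went from 6.74, 6.47, 5.93 and 5.67 CPM to 9.35, 9.58, 9.38 and 9.51 CPM (log2 fold change 0.61 ± 0.09 (SE), adjusted p = 9.99e-06). The 4 treated values of Timm10 were close together, and the 13 expressed genes within 1 Mb had a median log2 fold change of 0.29, whose part in the result was not tested. Timm17b fell from 42.6, 44, 40.03 and 40.8 CPM to 29.7, 24.9, 22.7 and 27.6 CPM, without overlap (log2 fold change −0.68 ± 0.09 (SE), adjusted p = 1.86e-06). Clpx rose from 52.7 ± 2.25 CPM to 68.6 ± 3.91 CPM and Timmdc1 fell from 30.5 ± 1.22 CPM to 24.7 ± 1.19 CPM (SD, n = 4), so both moved in the direction seen in Scr+Cy and ZIP+Cy. The call of Timm8b (0.19 (adjusted p = 0.0203)) was lost without OE replicate 2, OE replicate 3, OE+Cy replicate 3 or OE+Cy replicate 4, with log2 fold changes of 0.14 to 0.17 and adjusted p values of 0.0544 to 0.0988. With the replicate number as a block and all libraries, Timm8b kept its call (adjusted p = 0.00501).

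**Figure D3:**
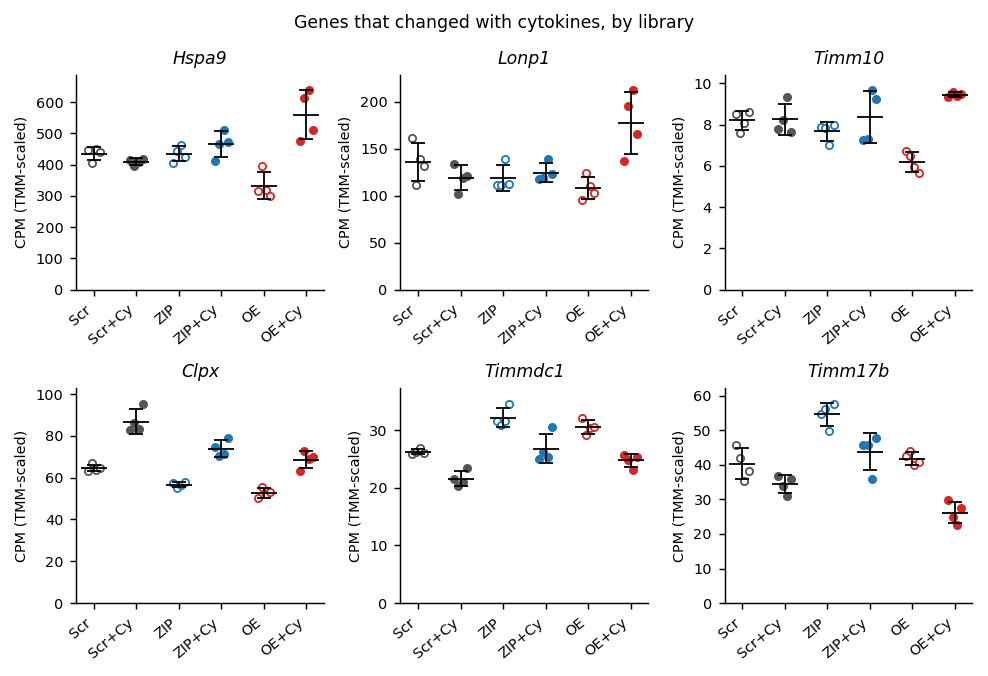
Level (CPM after TMM scaling, y axis from 0) of 6 genes by group (x axis); each point is a library, open without and filled with cytokines, and bars give mean and SD (n = 4). Clpx was higher and Timmdc1 lower with cytokines in each line, and Hspa9, Lonp1 and Timm10 were higher in all OE+Cy than in all OE libraries.

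Whether a line's response to cytokines differed from that of Scr was tested as an interaction. For OE minus Scr, 6 members had a more positive response (Lonp1, Hspa9, Timm10, Timm8a1, Tomm34 and Timm44) and 4 a more negative one (Timm17b, Tomm40l, Yme1l1 and Timm29), against 9.64% and 10.3% of all genes. The difference of log2 fold changes was 0.90 ± 0.17 (SE) for Lonp1 (adjusted p = 0.000638), where the response was 0.71 in OE and −0.19 in Scr. For Hspa9 it was 0.84 ± 0.12 (adjusted p = 5.78e-05), from responses of 0.75 and −0.09, and for Timm10 0.60 ± 0.13 (adjusted p = 0.00223), from 0.61 and 0.01. All 3 were lower in OE than in Scr before treatment, and the untreated OE and Scr libraries enter both results. Their mean levels in OE+Cy were 560.0 ± 78 CPM for Hspa9, 177 ± 33.2 CPM for Lonp1 and 9.45 ± 0.111 CPM for Timm10, against 409.8 ± 10.8 CPM, 119 ± 13.2 CPM and 8.25 ± 0.760 CPM in Scr+Cy (SD, n = 4). Hspd1, Hspe1 and Clpp did not pass in this interaction.

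The more negative responses were those of Timm17b (−0.44 (adjusted p = 0.0169)), Tomm40l (−0.41 (adjusted p = 0.0322)), Yme1l1 (−0.32 (adjusted p = 0.035)) and Timm29 (−0.27 (adjusted p = 0.00151)). Tomm40l went from 39.3 to 49.8 CPM in OE to 28.5 to 36.5 CPM in OE+Cy, and stayed between 25.4 and 28.3 CPM in the 8 libraries of Scr and Scr+Cy. Tomm34 (0.34 (adjusted p = 0.0162)), Timm8a1 (0.40 (adjusted p = 0.0406)) and Timm44 (0.30 (adjusted p = 0.0218)) had the smaller of the positive differences. Leaving out OE+Cy replicate 3 left 6 of the 10 (3 more positive, 3 more negative) and ended the calls of Timm44, Tomm34 (0.30, adjusted p = 0.0511), Timm8a1 (0.30, adjusted p = 0.136) and Tomm40l (−0.38, adjusted p = 0.0603), while Lonp1, Hspa9, Timm10 and Timm17b kept theirs whichever library was left out. Tomm40l, Timm8a1 and Yme1l1 each lost the call without any 1 of 6 or more libraries. With the replicate number as a block, Timm8b (0.25, adjusted p = 0.0173) and Gfer (0.20, adjusted p = 0.0338) passed as well for OE minus Scr in edgeR. For ZIP minus Scr, 0 members passed in edgeR in either direction, against 0.0509% and 0.00565% of all genes; 1 had an unadjusted p under 0.05, and DESeq2 gave 0. The differences ranged from −0.14 to 0.26, and for Hspa9 and Lonp1 they were 0.19 (95% confidence interval −0.06 to 0.43) and 0.26 (−0.08 to 0.60).

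**Figure D4:**
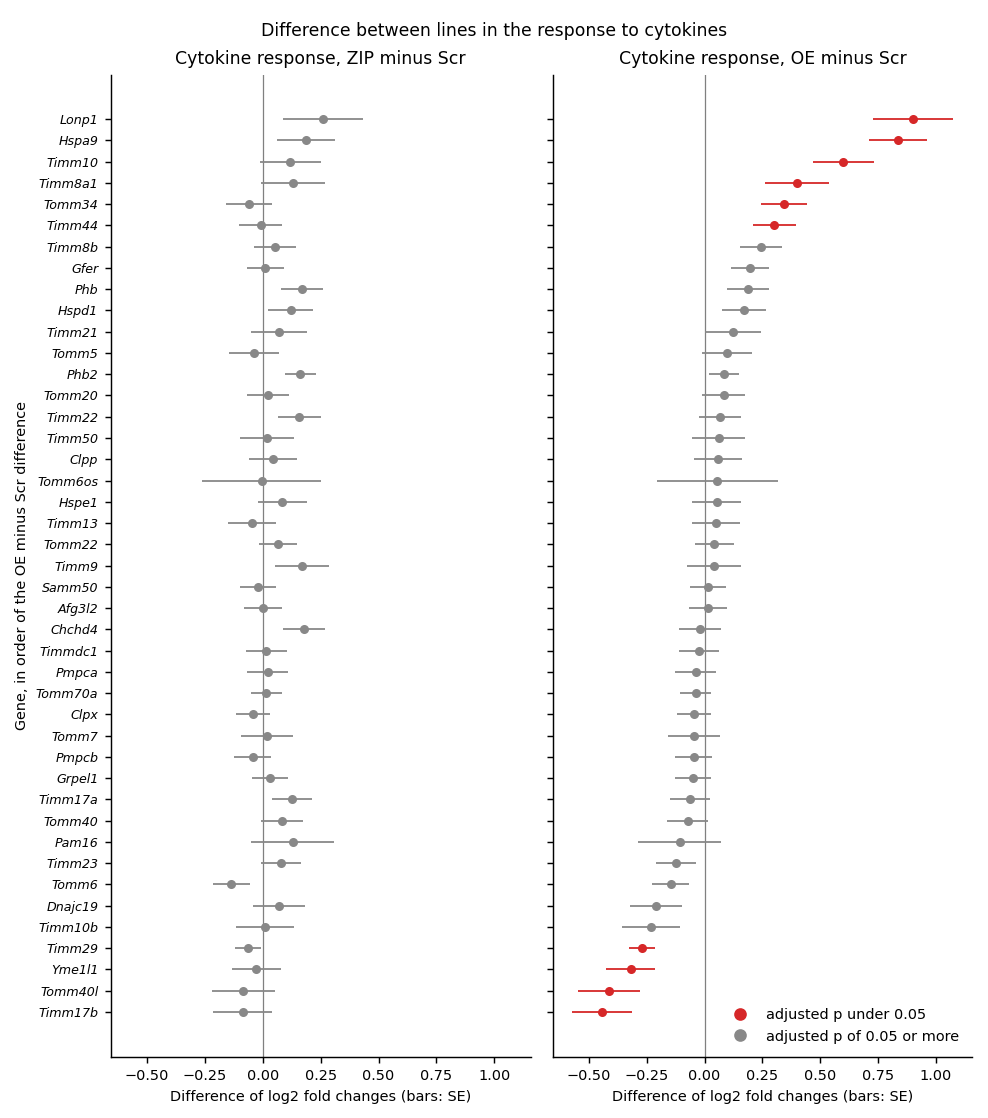
Difference between the log2 fold changes with cytokines of a pair of lines (x axis, bars SE) for the 43 genes (y axis), ZIP minus Scr on the left and OE minus Scr on the right. Red points have an adjusted p under 0.05; Lonp1, Hspa9 and Timm10 lie farthest to the right for OE, and no point is red for ZIP.

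The treated modified lines were also compared with untreated Scr, the reference of all the study's comparisons, so these results share the Scr libraries with those above and hold the effects of line and cytokines together. In ZIP+Cy, 12 members were higher and 1 lower, against 20.4% of all genes in each direction, and 0 were called at the study's thresholds, which took in 21.7% (15 had an unadjusted p under 0.05 in edgeR, and DESeq2 called 0). The median log2 fold change was 0.09 over the members and 0.00 over all genes. Those higher were Pam16 (0.37), Timm23 (0.31), Grpel1 (0.31), Timm17a (0.28), Pmpcb (0.25), Hspe1 (0.25), Tomm20 (0.22), Timm8b (0.22), Clpx (0.19), Gfer (0.16), Tomm70a (0.15) and Timm29 (0.13) in log2 fold change, and Tomm34 was lower (−0.23). Timm23 was at 54.4, 53.1, 53.8 and 65.6 CPM, all above the 4 Scr libraries, with replicate 4 highest (log2 fold change 0.31 ± 0.06 (SE), adjusted p = 0.000235). Hspe1, the cochaperonin, passed (0.25 (adjusted p = 0.00958)) and its partner Hspd1 did not (0.10 (adjusted p = 0.237)); the difference between them was not tested. Pam16, the lowest per kb in Scr of the 42 members with an exonic length, was at 4.80, 4.51, 5.06 and 6.22 CPM in Scr and 5.97, 6.78, 7.36 and 6.58 CPM in ZIP+Cy. The groups overlapped, and the call (log2 fold change 0.37 ± 0.13 (SE), adjusted p = 0.0212) was lost without Scr replicate 1 (adjusted p = 0.0579), Scr replicate 2 (0.073) or ZIP+Cy replicate 3 (0.068).

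In OE+Cy, 17 members were higher than in untreated Scr and 10 lower, against 30.4% and 29.1% of all genes. The study's thresholds called 3 members, Timm8a1 (0.60), Timm17b (−0.62) and Tomm6os (−0.71), and 34.2% of genes; without OE+Cy replicate 3 they called 0, and in DESeq2 4. The median was 0.09 over the members and 0.04 over all genes. Those higher included Tomm34 (0.58), Phb2 (0.49), Pmpcb (0.42), Chchd4 (0.40), Lonp1 (0.39), Tomm70a (0.38), Samm50 (0.37) and Hspa9 (0.36), and those lower Yme1l1 (−0.50), Timm21 (−0.39), Pmpca (−0.30) and Timm10b (−0.28). Tomm34 was at 41.6, 39.4, 44 and 43.8 CPM against 26.7 to 29.8 CPM in Scr, the lowest adjusted p among the members that rose after Phb2 (log2 fold change 0.58 ± 0.07 (SE), adjusted p = 1.49e-07). Yme1l1, a protease of the inner membrane that faces the intermembrane space, was at 198, 223, 220.4 and 217 CPM in Scr, 209, 174, 185 and 189.7 CPM in OE and 175, 152, 153 and 127 CPM in OE+Cy. All OE+Cy values were below all Scr values (log2 fold change −0.50 ± 0.07 (SE), adjusted p = 3.24e-06). Tomm6os had few reads, 3.05, 1.93, 1.91 and 2.54 CPM in Scr and 1.42, 1.73, 1.04 and 1.58 CPM after treatment of OE (log2 fold change −0.71 ± 0.18 (SE), adjusted p = 0.00194), and Tomm6, which it overlaps, had a log2 fold change of −0.14 (adjusted p = 0.0382). Hspd1 passed (0.16 (adjusted p = 0.0462)) but not without Scr replicate 1 (0.10, adjusted p = 0.199), Scr replicate 2, OE+Cy replicate 2 or OE+Cy replicate 3. Tomm40l (0.24 (adjusted p = 0.0311)) lost its call without Scr replicate 1, Scr replicate 4 or OE+Cy replicate 1 (0.17, adjusted p = 0.135).

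The proportions of some partner genes differed between groups. The ratios that follow were chosen after their values were seen, were computed within each library from the counts and are given as mean ± SD (n = 4) with no test; gene lengths were not taken into account, so they compare groups and not genes. Clpx over Clpp was 2.48 ± 0.146 in Scr, 2.02 ± 0.151 in ZIP and 1.72 ± 0.0596 in OE, and 3.46 ± 0.255, 2.66 ± 0.274 and 2.24 ± 0.141 in Scr+Cy, ZIP+Cy and OE+Cy, higher with cytokines in each line. Timm17b over Timm17a, alternative subunits of the TIM23 channel, was 0.830 ± 0.142, 1.02 ± 0.049 and 0.787 ± 0.0234 without cytokines and 0.697 ± 0.0894, 0.741 ± 0.101 and 0.508 ± 0.0377 with them, in the same order, so that the mean was lower with cytokines in each line, Scr included. Of the 24 values, 17 of Timm17b, which Btbd35f26 overlaps in the files' coordinates, and 20 of Timm17a were not whole. Whether reads were divided between these paralogs was not tested. Phb2 over Phb, which form 1 ring together, was 1.99 ± 0.0368, 2.03 ± 0.0881 and 2.83 ± 0.0637 without cytokines and 1.75 ± 0.0797, 1.78 ± 0.117 and 2.33 ± 0.157 with them, in the same order, with the mean higher in OE than in Scr and lower with cytokines in each line. Pmpcb over Pmpca, the subunits of 1 enzyme, was 0.436 ± 0.0224, 0.431 ± 0.0223 and 0.627 ± 0.0137 without cytokines and 0.503 ± 0.033, 0.476 ± 0.0342 and 0.727 ± 0.106 with them, in the same order, with the mean higher in OE than in Scr and higher with cytokines in each line. Tomm40l over Tomm40 was 0.527 ± 0.044, 0.555 ± 0.0623 and 0.855 ± 0.0545 without cytokines and 0.536 ± 0.02, 0.505 ± 0.0396 and 0.690 ± 0.0266 with them, in the same order, where both OE groups lay above the other 4. The cochaperonin over the chaperonin, Hspe1 over Hspd1, had means between 0.171 (Scr) and 0.188 (ZIP+Cy) in the 6 groups.

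Other genes of the pathway outside the symbol rule were taken from a list by role. Of 19 further genes of import and maturation, 3 were higher and 5 lower in OE against Scr, where 24.5% and 25.6% of all genes were, and 6 were higher and 2 lower in OE+Cy against OE, where 23% and 21.5% were. Grpel2, another exchange factor of Hspa9, was at 25.3, 29.9, 26.1 and 24.4 CPM in OE and 34.5, 42.7, 44.7 and 37.1 CPM in OE+Cy, with a response that differed from that of Scr by 0.58 (adjusted p = 0.000815). Hscb, a J-protein that works with Hspa9 in iron-sulfur cluster assembly, also differed (0.91 (adjusted p = 0.0096)), as did Dnaja3, a matrix J-protein (0.24 (adjusted p = 0.0288)). In this interaction 3 of the 19 were more positive and 0 more negative, against 9.64% and 10.3% of all genes. Of 10 quality control genes, 3 were higher and 4 lower in OE against Scr and 3 were higher and 2 lower in OE+Cy against OE, to be read against the same shares. Atf5, a transcription factor of the mitochondrial unfolded protein response, was at 216, 143, 176 and 147 CPM in Scr, 58.8, 122, 75.5 and 80.9 CPM in OE and 96.6, 184, 199.9 and 179.6 CPM in OE+Cy. It was lower in OE than in Scr (log2 fold change −1.02 ± 0.19 (SE), adjusted p = 0.000115), higher in OE+Cy than in OE (0.97, adjusted p = 0.000239) and differed in its response (1.3 (adjusted p = 0.00147)). Of the 10 quality control genes 1, Atf5, had a more positive response in OE and 0 a more negative one, against the same 9.64% and 10.3%. Trap1, a matrix Hsp90, rose with cytokines in Scr (0.22 (adjusted p = 0.0468)), ZIP (0.27 (adjusted p = 0.00984)) and OE (0.48 (adjusted p = 9.67e-06)). Of 7 genes of MICOS, the scaffold of the cristae, 2 were higher and 1 lower in OE against Scr and 0 were higher and 4 lower in OE+Cy against OE, against the same shares. Apoo was at 7.71, 7.68, 9.72 and 7.80 CPM in Scr, 14.3, 10.6, 12 and 12.6 CPM in OE and 9.76, 8.84, 8.56 and 6.23 CPM in OE+Cy, higher in OE than in Scr by 0.59 (adjusted p = 0.000742) on the log2 scale and lower in OE+Cy than in OE (−0.57 (adjusted p = 0.00123)). The response of Micos10 (−0.29 (adjusted p = 0.0141)) and Apoo (−0.68 (adjusted p = 0.0128)) was more negative in OE than in Scr. They were 2 of the 7, and 0 were more positive, against 10.3% and 9.64% of all genes. Genes outside the symbol rule were not examined in other fits or without single libraries.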

How the data were processed

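After FastQC, the authors used STAR for alignment to mm10 and Partek Flow for assignment to RefSeq transcripts; the quantification method is not given in the sources used here. They deposited estimated counts per gene without normalization, after removing genes with under 10 reads in total, and a normalized table that was not used here. Estimated counts, 30.3% of them not whole, were rounded, and 24 libraries were fitted in edgeR 4.0.16 (R 4.3.3; TMM, 6 group means, glmQLFit and glmQLFTest). Standard errors of log2 fold changes were derived from the F statistic. DESeq2 1.42.0 served as an alternative. Named genes were Timm23, Tomm20, Hspd1, Hspe1, Hspa9, Lonp1, Clpp, members called at the study's thresholds, and the 3 largest rises and falls per comparison at an adjusted p under 0.05; other members and genes were named after their values were seen. The members and lists were chosen with earlier results of these data known. Replicate numbers, which the labels share without giving their meaning, paired the libraries where every number's deviations correlated over 0.1 across 12670 genes: ZIP against Scr (lowest r 0.141), Scr+Cy against Scr (0.413), ZIP+Cy against ZIP (0.261) and OE+Cy against OE (0.162). The fit was tested on simulated data. A further α cell marker is not reported here. Coordinates are those of the files (mm10); sequences come from RefSeq and GENCODE M21.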

Additional observations from a re-analysis of the deposited data

Results flagged for a closer look

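In the 24 named members and 6 groups, 144 sets of 4 libraries were examined for a library far from the other 3 by Dixon's test at the 95% level, and 9 had one; chance gives about 1 in 20. Replicate 3 of ZIP was high in Lonp1 (139.5 CPM against 112 to 112 CPM) and low in Yme1l1 (218 CPM against 245 to 248 CPM) and Timm10 (7.00 CPM against 7.84 to 7.96 CPM). Timm23 was low in Scr+Cy replicate 1 (43.4 CPM against 47.2 to 47.2 CPM) and high in ZIP+Cy replicate 4 (65.6 CPM against 53.1 to 54.4 CPM). Tomm40l was high in OE replicate 1 (49.8 CPM against 39.3 to 39.5 CPM), and Clpp in Scr replicate 1 (27.9 CPM against 25.3 to 25.6 CPM). Pam16 was low in OE+Cy replicate 2 (4.33 CPM against 5.98 to 6.18 CPM) and the row of Timm8a1 in Scr replicate 2 (11.4 CPM against 13.1 to 13.1 CPM). Technical and biological sources of these gaps were not tested.

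The cytokine response differed between OE and Scr in 10 members, by the interaction test in edgeR at an adjusted p under 0.05. The differences of log2 fold changes were 0.90 for Lonp1, 0.84 for Hspa9, 0.60 for Timm10, 0.40 for Timm8a1, 0.34 for Tomm34 and 0.30 for Timm44, and −0.44 for Timm17b, −0.41 for Tomm40l, −0.32 for Yme1l1 and −0.27 for Timm29.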

How the results depend on the processing

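Counts of members were recomputed with DESeq2, with DESeq2's size factors in edgeR, with the filterByExpr filter, from the groups compared alone, with a replicate block and without each library. Outside those named here they stayed within 1.5 times the values above. The block raised the count in ZIP against Scr from 10 to 16 and gave 21, 3, 15, 29, 7 and 17 members in OE against Scr, Scr+Cy, ZIP+Cy and OE+Cy against Scr, ZIP+Cy against ZIP and OE+Cy against OE, 0 for the ZIP interaction and 12 for that of OE. Besides the calls named above and in unpaired comparisons, the block changed none. The shares of all genes with the block are not given here. In OE against Scr, OE+Cy against Scr and ZIP+Cy against Scr the numbers did not pair the libraries. For the interactions they paired the libraries within each line but not over all the groups compared. Without 1 library at a time, the members called at the study's thresholds were 1 to 2 in OE against Scr (Timm21 being added without Scr replicate 2 or OE replicate 4), 0 to 4 in OE+Cy against Scr (0 without OE+Cy replicate 3) and 3 to 4 in OE+Cy against OE, and 0 throughout in the other comparisons. Those at the adjusted threshold were 8 to 13 in ZIP against Scr, 18 to 20 in OE against Scr, 2 in Scr+Cy against Scr, 10 to 13 in ZIP+Cy against Scr, 22 to 27 in OE+Cy against Scr, 4 to 7 in ZIP+Cy against ZIP, 16 to 19 in OE+Cy against OE, 0 for the ZIP interaction and 6 to 10 for that of OE. With replicate 1 of Scr, Scr+Cy and ZIP left out together, an alternative chosen after seeing the data, the counts at the adjusted threshold were 10, 18, 2, 10, 22 and 4 in the comparisons with Scr (ZIP, OE, Scr+Cy, ZIP+Cy, OE+Cy) and ZIP+Cy against ZIP, and 7 for the OE interaction; among the named genes, the calls lost there were those of Lonp1 in OE against Scr (−0.23, adjusted p = 0.129), Tomm34 (−0.20, adjusted p = 0.0509) and Pam16 (0.34, adjusted p = 0.052) in ZIP+Cy against Scr, Tomm40l (0.22, adjusted p = 0.0831) and Hspd1 (0.10, adjusted p = 0.163) in OE+Cy against Scr, Chchd4 in ZIP+Cy against ZIP (0.14, adjusted p = 0.118) and, in the OE interaction, Tomm40l (−0.42, adjusted p = 0.0589), Timm8a1 (0.38, adjusted p = 0.11) and Yme1l1 (−0.30, adjusted p = 0.0853). Of the other members, Afg3l2 and Timm29 in ZIP against Scr, Tomm70a in ZIP+Cy against Scr, Dnajc19, Tomm40 and Tomm6 in OE+Cy against Scr and Timm22 in ZIP+Cy against ZIP lost their calls, and Pmpcb and Tomm6 gained one in ZIP against Scr. Of 83 results for named genes, 67 kept their direction and call in every setting run, 14 lost the call in at least 1 and 2 changed sign, both of them Tomm20 without a call: in Scr+Cy against Scr it was −0.00188 by DESeq2, −0.00185 with its size factors, −0.00173 without the 3 libraries and −0.0348 to 0.0519 without 1 library, and in ZIP+Cy against ZIP −0.00262 to 0.0834 without 1 library. From the groups compared alone, the calls of Hspd1 in OE+Cy against Scr (0.17, adjusted p = 0.0721), Chchd4 in ZIP+Cy against ZIP (0.19, adjusted p = 0.0534) and Timm8a1 in the OE interaction (0.38, adjusted p = 0.106) were lost; the cause was not tested. At this depth Tomm6os and Pam16, with the fewest reads, had the largest standard errors.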
